A study of Drosophila melanogaster with 18 samples.

Results

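Among 15602 genes in the FPKM table of *Drosophila* S2 cells, 47 genes outside the known heat shock families were already expressed before heat shock (HS) and at least doubled in FPKM after 30 min of it. FPKM are fragments scaled for transcript length and for the fragments mapped in a library. The members were chosen by a rule on these same values. Both non-HS (NHS) libraries had to reach 1 FPKM, and the lower of the HS values had to be at least 2 times the higher of the NHS values. Of 7334 genes that met the first condition, 66 met the second, or 0.900%. From these, 19 were dropped by symbol, namely genes of the Hsp, E(spl) and snoRNA families, *DnaJ-1*, *scyl*, *stg*, the noncoding *Hsromega* and *alphagamma-element* RNAs and 1 microRNA gene, which leaves the 47. Because the HS to NHS contrast selected them, their HS and NHS values are a description and carry no test.

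The libraries come from poly(A) RNA of cells of the S2 line, with no RNAi treatment in any of them, after 30 min of HS at 37°C and before HS, with 2 biological replicates in each condition and 4 libraries in all. HS began by adding an equal volume of warmed, serum-free medium to the culture, and the labels describe no mock addition for the NHS cells, so a response to the medium change and one to heat cannot be told apart. S2 cells are one embryonic line with features of haemocytes, the blood cells of the fly. PRO-seq, the study's other assay, was not analysed here.

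Heat activates heat shock factor, which drives the genes of the heat shock proteins, chaperones that bind unfolded proteins. Many other genes gain or lose RNA in the same minutes, and RNA sequencing of mature transcripts reads the sum of synthesis, processing and decay. The genes described here cover stress signalling, cell death, transcriptional control, detoxifying and sugar-modifying enzymes, mitochondrial transport and RNAs that encode no protein.

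Depth was estimated from the regular steps in the lowest values of genes with 1 annotated transcript, where 85.0% to 91.7% of a library's low values fell within 0.1 step of a whole number. By this estimate the HS libraries held an estimated 60.1% and 69.3% of the fragments of NHS replicate 1, and NHS replicate 2 held 77.0%. The deposited values sum to 923996 and 926922 FPKM in the HS libraries and to 831628 and 837852 FPKM in the NHS libraries. Of 15 haemocyte markers matched, 13 reached 1 FPKM in every library, and the summed level of the 15 was 1321 and 1450 FPKM after HS against 1259 and 1493 FPKM in NHS cells. Of 19 markers of other tissues, 16 stayed under 1 FPKM in every library and 3 were listed at 0 throughout. The neuronal *elav* and the glial *moody* were above 1 FPKM in every library. The summed level of all 19 was 40.9 and 42.9 FPKM after HS against 69.8 and 70.0 FPKM in NHS cells, and its part in the results below was not tested. That fall lay in the 2 glial markers, at 26.8 and 27.9 FPKM after HS against 59.4 and 60.3 FPKM in NHS cells. The neuronal, muscle, fat body and germ line sums were higher after HS, and the gut markers were at 0. In bulk RNA of this kind, fewer cells of a type and less RNA per cell cannot be told apart.

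**Figure D1:**
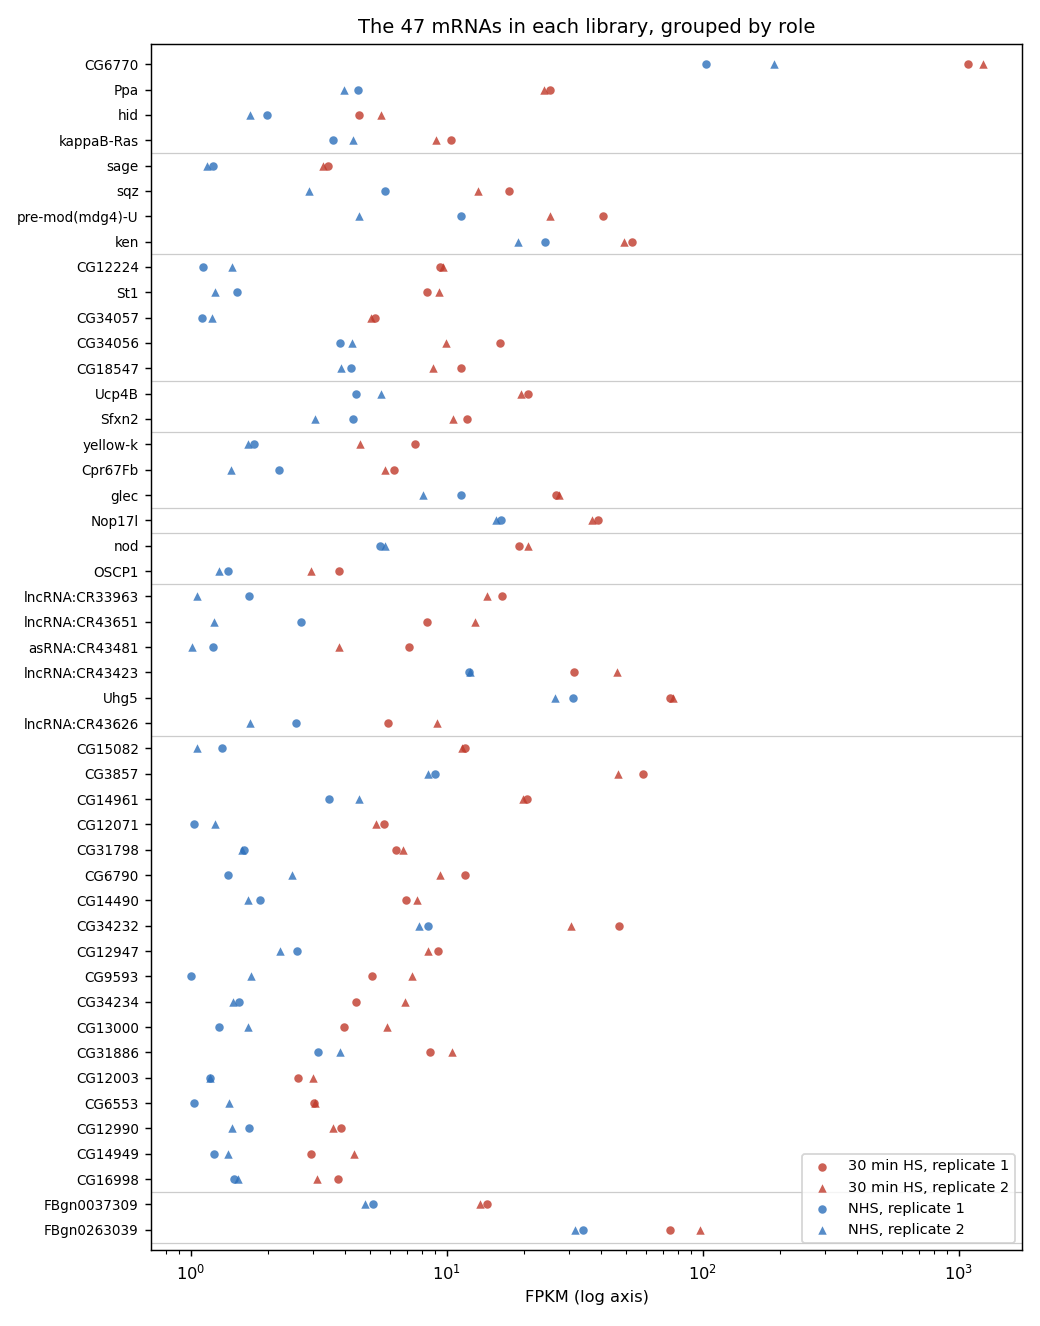
FPKM (log axis) of the 47 members in each library, grouped by role, with red for 30 min HS, blue for NHS, circles for replicate 1 and triangles for replicate 2. By the rule, every red point lies right of every blue point of its row. *CG6770* stands apart on the right at 1086 and 1244 FPKM after HS.

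Most members were low before HS. The median of their mean NHS levels was 1.96 FPKM (lowest 1.12, highest 146), against 24.8 FPKM over the 7334 expressed genes, and 21 of the 47 were under 2 FPKM in both NHS libraries. After HS the members' median was 9.71 FPKM, and 19 of them exceeded 10 FPKM in both HS libraries. The ratio of the lower HS to the higher NHS value ran from 2.04 to 8.62 with a median of 2.61, while the same ratio had a median of 0.852 over all expressed genes. It was 5 or more in 7 members, 3 or more in 19 and under 2.5 in 21. On the log2(FPKM + 1) scale, which understates the change of low genes, the median member difference was 1.48 and that of all expressed genes was -0.03. The HS libraries of a member differed by a median of 1.14 times and the NHS libraries by a median of 1.17 times. The libraries of a condition lay within 1.5 times of each other in 83.0% of members after HS and 80.9% in NHS cells, against 91.7% and 93.2% of expressed genes.

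The share of genes that met the rule depended on the NHS level. Before symbols were dropped, it was 9.8% of 255 genes at 1 to 2 FPKM (24 of the 25 are members), 2.03% of 591 at 2 to 5, 0.573% of 2267 at 5 to 20, 0.411% of 3162 at 20 to 100 and 0.283% of 1059 at 100 FPKM or more. The mirror image, a higher HS value at most 0.5 times the lower NHS value, was met by 111 genes (1.51%) and showed no such slope, with 1.18% in the lowest class and 2.27% in the highest. An estimate of the fragments behind each value shows how little carries the lowest levels. The median member had 185 and 159 fragments in the HS libraries and 64 and 46 in the NHS libraries, and the thinnest NHS value rested on 5.

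**Figure D2:**
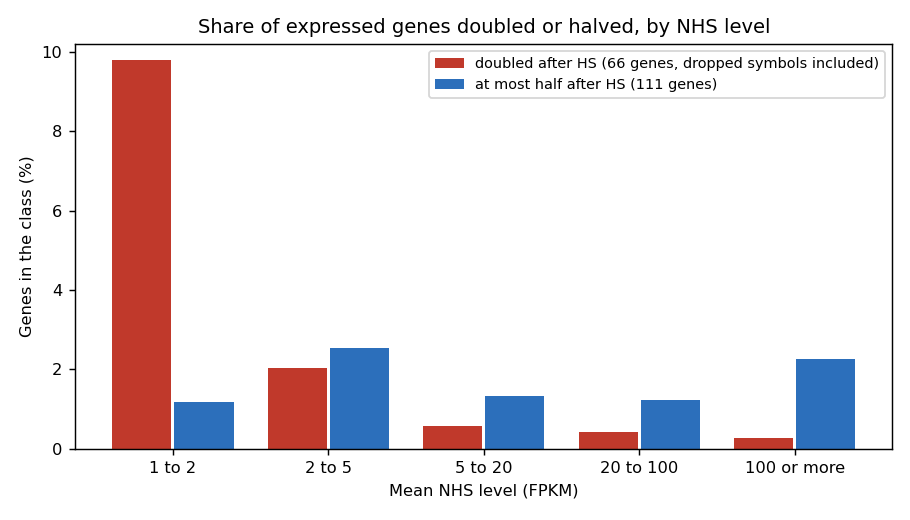
Share of expressed genes (%) in each class of mean NHS level (FPKM) that were at least doubled after HS (red) or at most 0.5 times the NHS level (blue). The red share falls from class to class, at 9.8% in the lowest and 0.283% in the highest, and the blue share stays between 1.18% and 2.54%.

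**Figure D3:**
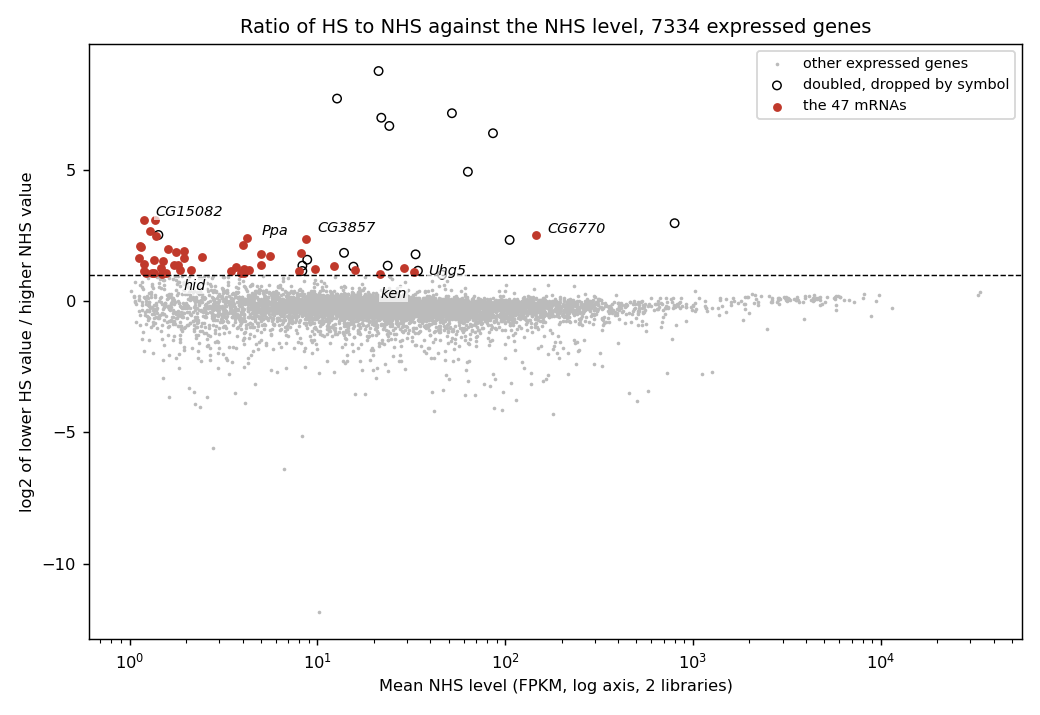
log2 of the lower HS value over the higher NHS value against the mean NHS level (FPKM, log axis) for expressed genes, with the 47 members in red, doubled genes dropped by symbol as open circles and the threshold of 2 dashed. The 30 genes listed at 0 in an HS library are not drawn. Most members sit at the left, near the threshold, and *CG6770* is the member at the far right.

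The threshold cuts through a continuum. Just inside it lay *ken* (ratio 2.04), *CG16998* (2.04), *CG18547* (2.08) and *CG14949* (2.10). Just outside it lay *ph-d* (1.99), *CG8160* (1.98, listed at 3.43 and 3.07 FPKM after HS against 1.55 and 1.09 FPKM in NHS cells), *CG3270* (1.97) and *Nufip* (1.96), a factor of small nucleolar RNP assembly. Scaling the libraries to the same FPKM total kept 36 of the 47, and scaling to the summed ribosomal protein mRNAs kept 28. These scalings moved the median log2 ratio of all expressed genes by -0.14 and -0.23.

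The most abundant member was a stress gene. *CG6770* is the fly counterpart of mammalian NUPR1, a small chromatin protein that many stresses induce in mammals. It reached 1086 and 1244 FPKM after HS, against 103 and 190 FPKM in NHS cells. The mean was 7.96 times higher after HS, and the NHS libraries differed from each other by 1.84 times, so the size of the ratio depends on which NHS library is used. *Ppa* encodes an F-box protein that selects targets for ubiquitination. It stood at 25.4 and 24.1 FPKM after HS against 4.50 and 3.97 FPKM in NHS cells, with both replicates of a condition within 1.13 times of each other. *hid* encodes an antagonist of the inhibitors of apoptosis and so promotes caspase activity. It was at 4.54 and 5.52 FPKM after HS against 1.99 and 1.71 FPKM in NHS cells, a ratio of means of 2.72 at a low level. *kappaB-Ras*, whose mammalian counterparts bind inhibitors of NF-kappaB, was at 10.4 and 9.06 FPKM after HS against 3.59 and 4.30 FPKM in NHS cells.

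Members left aside, no gene of the cell death, Imd and Toll or ubiquitin and autophagy lists passed the test upwards. The only member in these lists is *hid*, in the cell death list. Over all 7815 genes tested, members included, limma on log2(FPKM + 1) called 137 higher (1.75%) and 122 lower (1.56%) at an adjusted p under 0.05. Scaled to the same FPKM total it called 131 higher and 253 lower, and scaled to ribosomal protein mRNAs 137 and 458. Of 15 other cell death genes tested, 0 were called higher (1 at an unadjusted p under 0.05) and 2 lower (9 at that p), with a median log2 change of -0.43 against -0.02 over all genes tested. The initiator caspase gene *Dronc* fell to 20.1 and 20.9 FPKM after HS, against 50.1 and 53.6 FPKM in NHS cells, a limma log2 change of -1.30 ± 0.10 (SE; adjusted p = 0.011). The engulfment receptor gene *drpr* also fell, by 0.76 on the log2 scale (adjusted p = 0.046). Of 42 Imd and Toll genes tested, 0 were called higher (1 at an unadjusted p under 0.05) and 8 lower (21 at that p). The NF-kappaB gene *Rel* was among them, at 122 and 135 FPKM after HS against 652 and 810 FPKM in NHS cells (limma log2 change -2.49 ± 0.14, SE; adjusted p = 0.0063), as were the feedback inhibitor gene *pirk* and the antimicrobial peptide genes *CecA1*, *CecB*, *CecC*, *AttA*, *AttB* and *Mtk*. Without HS replicate 1, HS replicate 2 or NHS replicate 1, 0 of the 8 passed, and without NHS replicate 2 only *Rel* did, each time with a single library left in one condition. The 2 cell death calls were lost in all 4 of these fits. At the same FPKM total the lower calls were 13 for Imd and Toll and 5 for cell death, with ribosomal protein scaling 18 and 7, and median ratio scaling lost *drpr*. Of 36 ubiquitin and autophagy genes tested, 0 were called higher (3 at an unadjusted p under 0.05), and 1, the ubiquitin ligase gene *Su(dx)*, was called lower.

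Transcription regulators made up 4 members, with ratios of the lower HS to the higher NHS value between 2.04 and 2.69. Their ratios of means ran from 2.37 to 4.15, against a median of 3.54 over all members. *ken* encodes a BTB zinc finger repressor that acts on targets of the JAK-STAT pathway. It stood at 53.03 and 49.5 FPKM after HS against 24.3 and 19.0 FPKM in NHS cells. *sqz*, a C2H2 zinc finger gene known from neuronal identity, was at 17.6 and 13.2 FPKM after HS against 5.74 and 2.88 FPKM in NHS cells, where the libraries differed by 1.99 times. The salivary gland bHLH gene *sage* was at 3.43 and 3.28 FPKM after HS against 1.22 and 1.16 FPKM in NHS cells. *sage* is thus expressed at a trace level in both conditions. The annotation unit *pre-mod(mdg4)-U* holds alternative 3' exons that are trans-spliced to the chromatin gene *mod(mdg4)*. Its NHS libraries were the least even of all members, 2.50 times apart, at 40.8 and 25.3 FPKM after HS against 11.4 and 4.55 FPKM in NHS cells, and it overlaps 6 sister units on the same strand, so reads could be shared among them. The sister units it overlaps were not called, and *mod(mdg4)* itself, on the other strand, was at 185 and 166 FPKM after HS against 162 and 141 FPKM in NHS cells (limma adjusted p = 0.49).

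Among 71 other transcription regulators tested, 3 were called higher and 3 lower, with a median log2 change of 0.03. Those higher were *Eip75B*, an ecdysone-induced nuclear receptor gene (49.2 ± 1.2 FPKM after HS against 24.9 ± 2.6 FPKM in NHS cells, SD, n = 2; limma adjusted p = 0.034), *jumu*, a forkhead gene, and *brk*, a repressor gene of the Dpp pathway. *Jra*, *Rel* and *Ets21C* were lower. In the JAK-STAT list, to which *ken* belongs, 12 other genes were tested, 0 were called higher (1 at an unadjusted p under 0.05) and 2 lower. These are the cytokine genes *upd2* and *upd3*, and *upd3* was at 6.49 and 6.68 FPKM after HS against 51.1 and 49.4 FPKM in NHS cells (limma log2 change -2.76 ± 0.09, SE; adjusted p = 0.0017; 0.038 to 0.054 without 1 library).

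Enzyme genes made up 5 members, in which 2 adjacent pairs stood out. *CG12224* and *CG18547* are adjacent genes on the same strand, both of the aldo-keto reductase family, whose enzymes reduce aldehydes and ketones. *CG12224* was at 9.40 and 9.68 FPKM after HS against 1.12 and 1.45 FPKM in NHS cells, and *CG18547* was at 11.4 and 8.84 FPKM after HS against 4.24 and 3.86 FPKM in NHS cells. The ratio of means was 7.43 for *CG12224* and 2.50 for *CG18547*, so the pair reached a like level after HS from unlike NHS levels. The sulfotransferase gene *St1* was at 8.40 and 9.32 FPKM after HS against 1.52 and 1.24 FPKM in NHS cells. The neighbours *CG34057* and *CG34056*, of a family of galactosyltransferases that build O-linked sugars, form the other adjacent pair. *CG34057* was at 5.27 and 5.08 FPKM after HS against 1.10 and 1.21 FPKM in NHS cells. *CG34056* was at 16.2 and 9.90 FPKM after HS against 3.84 and 4.25 FPKM in NHS cells, and its HS libraries differed by 1.63 times.

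Both mitochondrial carriers among the members lay below the median level of expressed genes, which was 24.8 FPKM in NHS cells and 23.6 FPKM after HS. *Ucp4B* encodes a carrier of the uncoupling protein family. It was at 20.8 and 19.5 FPKM after HS against 4.43 and 5.56 FPKM in NHS cells. *Sfxn2*, a sideroflexin gene, was at 11.99 and 10.6 FPKM after HS against 4.30 and 3.07 FPKM in NHS cells. No gene of the membrane transport and metabolism list passed the test among 32 tested (with 1 higher at an unadjusted p under 0.05 and 0 lower).

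Genes of RNP assembly and of the cell surface followed, with ratios of the lower HS to the higher NHS value between 2.27 and 2.61. *Nop17l* encodes a PIH-domain protein of the complex that works with HSP90 in assembling small nucleolar RNPs. It stood at 39.0 and 36.8 FPKM after HS against 16.2 and 15.5 FPKM in NHS cells, with replicates within 1.06 times of each other. *glec*, encoding the carbohydrate-binding protein gliolectin, was at 26.9 and 27.5 FPKM after HS against 11.4 and 8.11 FPKM in NHS cells. *Cpr67Fb*, a cuticle protein gene, was at 6.23 and 5.73 FPKM after HS against 2.20 and 1.43 FPKM in NHS cells, on an estimated 17 and 18 fragments after HS and 10 and 5 in NHS cells. *yellow-k*, of the yellow family, was at 7.54 and 4.59 FPKM after HS against 1.76 and 1.67 FPKM in NHS cells. The HS libraries of *yellow-k* differed by 1.64 times. *nod*, a chromosome-bound kinesin gene of meiosis, was at 19.1 and 20.8 FPKM after HS against 5.47 and 5.74 FPKM in NHS cells. *lncRNA:roX2*, next upstream of *nod* on the same strand within 1000 bases, was far more abundant. It was at 422 and 394 FPKM after HS against 264 and 200 FPKM in NHS cells and was not called (limma adjusted p = 0.092). Its part in the signal of *nod* was not tested. *OSCP1* was at 3.79 and 2.95 FPKM after HS against 1.40 and 1.29 FPKM in NHS cells.

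Of the 45 members with an annotation, 6 (13.3%) make no protein, against 3.32% of the 7012 annotated expressed genes. *Uhg5* is a host of small nucleolar RNAs, which lie in its introns. It reached 74.3 and 76.6 FPKM after HS, against 31.1 and 26.6 FPKM in NHS cells, a ratio of means of 2.61. Of the 11 snoRNA genes that overlap it, 7 were listed at 0 in every library, and each of the 4 tested was listed at 0 in at least 1. Of these, *snoRNA:Me28S-G2703c* was called lower, listed at 0 in both HS libraries and at 33.9 and 44.0 FPKM in NHS cells (limma adjusted p = 0.0016). A listed 0 can be a missing estimate and equal 0s have no spread, so the call does not show that this snoRNA fell. *snoRNA:Or-CD4*, also tested and not called, was listed at 150 and 196 FPKM after HS against 226 and 0 FPKM in NHS cells. Of 26 other genes of ribosome biogenesis and snoRNA hosting tested, limma called 0 in either direction (2 were higher and 1 was lower at an unadjusted p under 0.05), with a median log2 change of 0.03. *lncRNA:CR33963* had the largest ratio of means, 11.2, at 16.4 and 14.3 FPKM after HS against 1.69 and 1.06 FPKM in NHS cells. It overlaps *Tis11*, an mRNA decay factor gene, on the same strand. *Tis11* was at 54.6 and 60.9 FPKM after HS against 53.1 and 54.0 FPKM in NHS cells and was not called (limma log2 change 0.10 ± 0.10, SE; adjusted p = 0.71). How the authors' software divided reads between overlapping genes of one strand is not given in the sources used.

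The other noncoding members were less even between the HS replicates. This did not hold in NHS cells, where the libraries of *lncRNA:CR33963* differed by 1.59 times and those of *lncRNA:CR43423* by 1.01 times. *lncRNA:CR43651*, which overlaps the microRNA gene *mir-14*, was at 8.40 and 12.9 FPKM after HS against 2.69 and 1.23 FPKM in NHS cells. *lncRNA:CR43626*, which overlaps *mir-282*, was at 5.89 and 9.19 FPKM after HS against 2.57 and 1.70 FPKM in NHS cells. In both, HS replicate 2 was the higher HS library and NHS replicate 2 the lower NHS library. *lncRNA:CR43423* was at 31.3 and 46.1 FPKM after HS against 12.3 and 12.3 FPKM in NHS cells. *asRNA:CR43481* lies within the 67B cluster of small heat shock genes, antisense to *Hsp67Ba*. It was at 7.13 and 3.80 FPKM after HS against 1.23 and 1.02 FPKM in NHS cells, the widest gap between HS libraries of any member with 1.87 times. *Hsp67Ba* was at 5.57 and 5.58 FPKM after HS against 0.773 and 1.39 FPKM in NHS cells, and others nearby were far higher. *Hsp23*, on the same strand within 1000 bases, was at 10860 and 8092 FPKM after HS against 95.5 and 76.7 FPKM in NHS cells. *Hsp26*, on the other strand, was at 12838 and 9713 FPKM after HS against 67.6 and 36.6 FPKM in NHS cells. The part of these neighbours in the signal of *asRNA:CR43481* was not tested.

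The largest group, 18 members, has only CG numbers for symbols and no role is given for it here. *CG15082* had the largest ratio of the lower HS to the higher NHS value, 8.62, at 11.8 and 11.5 FPKM after HS against 1.33 and 1.06 FPKM in NHS cells. *CG3857* was the most abundant of the group, at 58.3 and 46.6 FPKM after HS against 9.01 and 8.48 FPKM in NHS cells. *CG14961* was at 20.5 and 19.9 FPKM after HS against 3.47 and 4.53 FPKM in NHS cells. The ratio of means of these genes was 5.06 to 9.74. *CG12071* was at 5.71 and 5.31 FPKM after HS against 1.03 and 1.25 FPKM in NHS cells. *CG31798* was at 6.35 and 6.75 FPKM after HS against 1.61 and 1.58 FPKM in NHS cells. *CG6790* was at 11.8 and 9.42 FPKM after HS against 1.40 and 2.50 FPKM in NHS cells, where the libraries differed by 1.79 times. *CG34232* was at 47.2 and 30.6 FPKM after HS against 8.47 and 7.80 FPKM in NHS cells. *Oda*, next upstream of *CG34232* on the same strand within 1000 bases, was at 472 and 311 FPKM after HS against 200 and 136 FPKM in NHS cells. *Oda* was not called (limma adjusted p = 0.13), and its part in the signal of *CG34232* was not tested. The other 11 members of the group, *CG14490*, *CG12947*, *CG9593*, *CG34234*, *CG13000*, *CG31886*, *CG12003*, *CG6553*, *CG12990*, *CG14949* and *CG16998*, had ratios of means from 2.29 to 4.57 and mean HS levels from 2.81 to 9.55 FPKM. A further 2 members carry identifiers that the annotation used here does not name, with mean levels of 13.9 and 86.2 FPKM after HS against 4.99 and 32.8 FPKM in NHS cells.

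Members tended to be short genes with few exons, features the rule did not use. The median longest transcript was 1428 nt for the 45 annotated members and 1948 nt for the 7012 annotated expressed genes, and the median exon number was 2 for members and 4 for expressed genes. A single exon was annotated for 10 members (22.2%) and 11.8% of expressed genes, and 1 or 2 exons for 26 members (57.8%) and 30.8% of expressed genes. Among the members with a single exon are *CG6770*, *Ppa*, *CG3857*, *CG34232* and *lncRNA:CR33963*, while *Uhg5* has the most, with 12. Members lie on arms 3L (13), 2R (13), 3R (10), X (5) and 2L (4). These counts are a description without a test, and the NHS level, which was lower for members, was not held equal in them.

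**Figure D4:**
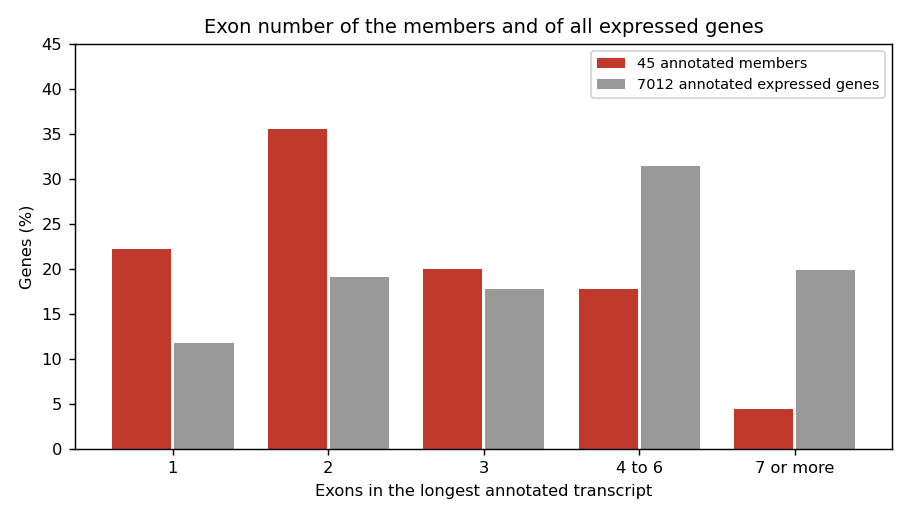
Percentage of the 45 annotated members (red) and of the 7012 annotated expressed genes (grey) by number of exons in the longest annotated transcript. The members' bars are higher at 1 and 2 exons (22.2% and 35.6%, against 11.8% and 19.1%) and lower from 4 exons on.

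Several members lie beside other genes with more RNA after HS. A gene counted here when its lower HS value reached 1 FPKM and was at least 2 times its higher NHS value, which 333 genes of the whole table did (2.13%). Of the 45 annotated members, 13 (28.9%) had such a gene overlapping them or within 1000 bases on either strand, against 5.13% of the annotated expressed genes. Members also more often had any same-strand gene upstream within 1000 bases, doubled or not (42.2% against 28.2%). Neither this nor the NHS level was held equal in these counts. A member or a heat shock protein gene, the latter doubled or not, overlapped or lay within 1000 bases of 5 members (11.1%) and 0.956% of expressed genes. The genes beside the 13 members comprise 4 that are members themselves, in the adjacent pairs above, and 12 others, of which 10 were under 1 FPKM in at least 1 NHS library and so could not be members. *CG6785*, directly downstream of *CG6770* on the same strand, was at 10.5 and 7.64 FPKM after HS against 0.194 and 0.561 FPKM in NHS cells (limma log2 change 2.87 ± 0.25, SE; adjusted p = 0.016). *CG15546*, directly downstream of *CG12071*, was at 2.66 and 2.56 FPKM after HS and was listed at 0 and 0.0452 FPKM in NHS cells (limma adjusted p = 0.036). *Ucp4C*, the paralog next upstream of *Ucp4B*, was at 4.81 and 2.78 FPKM after HS against 0.340 and 0.0736 FPKM in NHS cells and did not pass (limma adjusted p = 0.057).

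**Figure D5:**
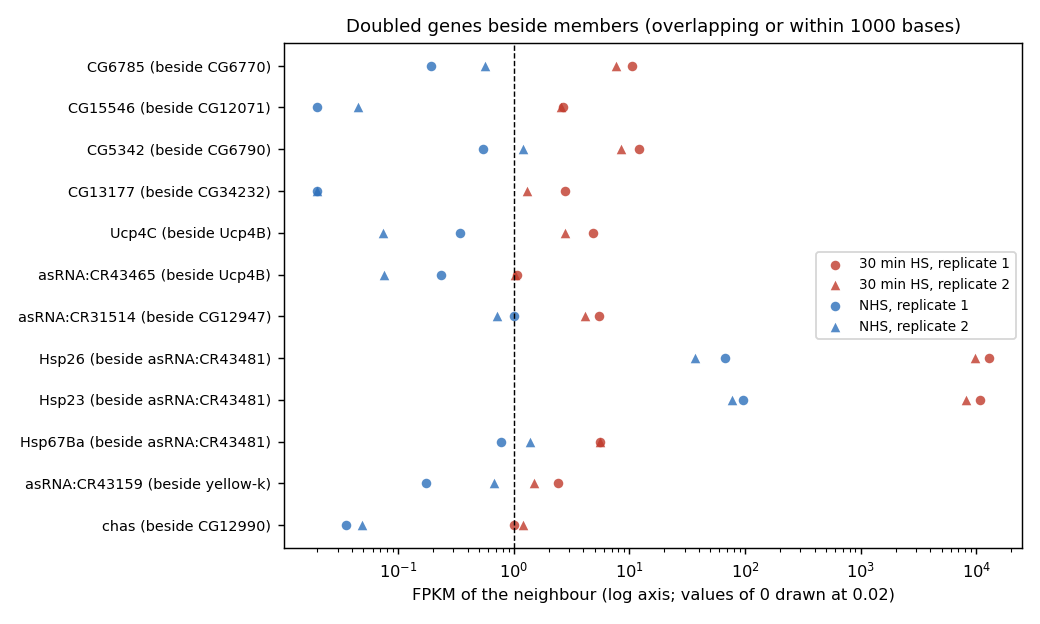
FPKM (log axis, values of 0 drawn at 0.02) in each library of the 12 genes that are not members, were at least doubled after HS and overlap a member or lie within 1000 bases of one, with red for 30 min HS and blue for NHS. The dashed line marks 1 FPKM, the NHS level a member had to reach. All but *Hsp26* and *Hsp23* have at least 1 NHS value below it.

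Doubled or not, 24 genes that are not members are the next gene within 1000 bases of a member on its strand without overlapping it. Of the 18 tested, limma called 3 higher (16.7%; *Hsp23*, *CG6785* and *CG15546*) and 1 lower (*Fa2h*), against 1.73% higher and 1.66% lower among the same-strand neighbours of all expressed genes. At an unadjusted limma p under 0.05, 7 of the 18 were higher and 1 lower, against 213 and 256 of 2654 tested neighbours of expressed genes. The median log2 change of the 18 was 0.22, against -0.02 for the neighbours of expressed genes. Of 16 tested genes that overlap a member on the other strand, 2 were called higher (12.5%; *Hsp67Ba* and *asRNA:CR31514*) and 0 lower. Among the genes that overlap expressed genes on the other strand, 0.946% were called higher and 1.23% lower. At an unadjusted limma p under 0.05, 5 of the 16 were higher and 2 lower, against 159 and 240 of 2431 for expressed genes. Of 13 tested genes that overlap a member on its own strand, 0 were called higher (1 at an unadjusted p under 0.05) and 1 lower (7.69%), the *snoRNA:Me28S-G2703c* above, against 1.76% and 2.72% for expressed genes. With any 1 library left out, *Hsp23* and *snoRNA:Me28S-G2703c* were the only ones of these calls that passed. Both HS values of that snoRNA gene were listed at 0, so its p does not reflect a replicate spread after HS. Most of these neighbours were not called. Genes near a member on the other strand without overlap are in none of these sets. *CG5342* is such a gene and was called. *CG5342*, within 1000 bases of *CG6790* on the other strand, was at 11.99 and 8.48 FPKM after HS against 0.540 and 1.19 FPKM in NHS cells (limma log2 change 2.60 ± 0.27, SE; adjusted p = 0.025; adjusted p = 0.092 to 0.15 with 1 library left out). *Mrp4*, which overlaps *CG6790* on the other strand, was at 144 and 151 FPKM after HS against 132 and 193 FPKM in NHS cells (limma adjusted p = 0.86). *CG7879*, antisense to *CG12003*, was at 17.2 and 18.9 FPKM after HS against 8.97 and 11.004 FPKM in NHS cells (limma adjusted p = 0.072). *CG30503*, which overlaps *kappaB-Ras* on the same strand, had 8.75 and 6.76 FPKM after HS against 17.4 and 13.9 FPKM in NHS cells (limma adjusted p = 0.093), opposite in sign to the member. Whether reads crossed from one gene of a pair to the other was not tested.

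Over 21 pathway lists together, 562 genes that are not members were tested, of which limma called 8 higher (1.42%) and 22 lower (3.91%), with a median log2 change of -0.02. With 1 library left out, 0 to 1 were called higher and 0 to 3 lower. Only 4 members, *CG6770*, *ken*, *hid* and *Uhg5*, belong to any of the lists, so most of the 47 lie outside the pathways listed. Among metal and oxidative stress genes, the list of *CG6770*, 1 of 39 others tested was called, the glutathione transferase gene *GstD10*, at 3.98 and 4.74 FPKM after HS against 0.177 and 0.576 FPKM in NHS cells (limma adjusted p = 0.036). In the chaperone partner list *CG4461*, a small heat shock protein gene listed at 0 in both NHS libraries, had 9.48 and 7.12 FPKM after HS, and *mrj*, a J-domain gene, was lower. *Gcn2*, a kinase gene of both the ER stress and the protein synthesis lists, had 13.3 and 16.7 FPKM after HS and was listed at 0 in NHS cells. A listed 0 can be a missing estimate, so these calls do not show that *Gcn2* or *CG4461* lacked RNA before HS. The called genes of the remaining lists are given with their list, which need not be their function. Those higher were *edl* (EGFR and Ras list) and *tra* (nonsense-mediated decay and RNA decay list). Those lower were *puc*, *Jra*, *Mmp1* and *Ets21C* (JNK and AP-1 list) and *RhoGEF3*, *RhoL*, *cpa* and *Vinc* (cytoskeleton and adhesion list). The Notch, TOR and insulin, cell cycle, circadian, splicing, histone and membrane transport lists held 0 calls in either direction by limma, with 1, 2, 5, 0, 2, 0 and 1 genes higher at an unadjusted p under 0.05 and 1, 7, 2, 0, 1, 0 and 0 genes lower. Of a wider haemocyte marker list 14 genes were tested and 1, *drpr*, was called lower. Of a wider list for other tissues 3 were tested and 1, *moody*, was called lower (27.3 ± 0.6 FPKM after HS against 59.9 ± 0.6 FPKM in NHS cells, SD, n = 2; limma adjusted p = 0.014).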

How the data were processed

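The authors sequenced strand-marked poly(A) RNA libraries of untreated S2 cells in 2 conditions, discarded reads under 20 nt, aligned with TopHat2 to dm3 and deposited FPKM per gene and library from Cuffnorm (tools and build also named in the submitters' processing notes, without versions). FPKM are relative, and a loss or gain shared by every mRNA does not show in them. The labels have 1 entry per condition, so replicate numbers come from column names, and 0 columns went unused. The 16 PRO-seq samples were not analysed here.

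Symbols, transcript lengths, exons and gene order came from Ensembl release 115 (BDGP6, not the authors' build, so no coordinates are given), which named 14925 of 15602 genes. Members were selected with Python 3.11.15 by the rule given in the report. Other genes were tested with limma 3.58.1 in R 4.3.3 (lmFit, eBayes with trend, two-sided, Benjamini-Hochberg over all genes tested) on log2(FPKM + 1) for genes averaging 1 FPKM or more, checked on simulated data, because FPKM do not allow the authors' count test. Fragments per value were estimated from the FPKM of 1 fragment per library and transcript length less 200 nt. These estimates assume the longest annotated transcript. With 2 replicates, n limits every error given.

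The members, the 21 pathway lists and the 2 marker lists were chosen with earlier results of these data known. The rule for named members takes those with the 12 largest ratios, the 10 highest HS levels, all listed members, the 4 nearest the threshold on either side, the 3 least even in each condition, and those beside a member or heat shock protein gene, 28 in all. From the lists, called genes that are not members are named. The other members with a symbol, and other genes named, were added after their values were seen. Alternatives tried were the threshold, the NHS minimum, pseudocount, filter, scaling, robust fit, replicate block and each library left out. Promoter motifs were not searched.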

Additional observations from a re-analysis of the deposited data

How the results depend on the processing

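Raising the threshold to a ratio of 3 left 19 members and lowering it to 1.5 gave 127. An NHS minimum of 2 or 5 FPKM left 22 or 10, and ribosomal protein scaling 28. With 1 library left out, the rule gave 71 to 83 members, all 47 among them, since fewer values have to pass. The median member log2 ratio of 1.48 was 1.77 with a pseudocount of 0.1, 0.91 with 5 and 1.26 with ribosomal protein scaling. It ran from 1.39 to 1.53 with 1 library left out. The members' median NHS level was 1.71 to 2.57 FPKM with 1 NHS library left out. Counting neighbours on either strand and either side, 5 members lay beside a member or heat shock protein gene, against 2 with such a gene upstream on their strand.

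The limma calls depended more on the settings. Calls of higher genes (137) were 280 without a filter, 60 at a minimum mean of 5 FPKM and 16 to 36 with 1 library left out. Calls of lower genes (122) were 253 at the same FPKM total, 458 with ribosomal protein scaling, 190 with the robust fit and 6 to 34 with 1 library left out. With 1 library left out, a condition is a single library assumed to vary like the other. Over the pathway lists, higher calls (8) were 2 at a minimum mean of 5 FPKM, 5 at the same FPKM total and 0 to 1 with 1 library left out, and lower calls (22) were 38 at the same FPKM total, 58 with ribosomal protein scaling and 0 to 3 with 1 library left out. The replicate block gave 334 higher and 582 lower genes, and 26 higher and 75 lower in the lists. Same-numbered libraries deviated together with a correlation across genes of 0.22 (2 pairs). No label says whether a number marks a shared culture or day, so a pairing is unknown and the main fit did not use one. A set of 37 called genes was followed, namely those in the lists and those that overlap a member or lie next to it on its strand. None of them changed direction under the alternatives run, and most lost their call with 1 library left out. Called genes near a member on the other strand without overlap, such as *Hsp26* and *CG5342*, were not in this set. The promoter motif alternatives were not run, as no promoter sequence was used here. With 2 libraries per condition and under 100 estimated NHS fragments behind the median member, ratios of the lowest members are imprecise.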
